A study of Mus musculus with 2 samples.

Results

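The genes described are 8 genes of the neuronal cytoskeleton and growth cone, measured in mouse embryonic ureters: Prph, Nefl, Nefm, Nefh, Ina, Tubb3, Stmn2 and Gap43. They were chosen by name, as every probe that is not a control and whose gene name in the scanner files is one of the 8. The list of names was made with earlier results of these data known. The rule found 8 of 31870 genes on the array, with 10 probe sequences on 19 spots per array, and all 8 were among the 20506 genes tested. Of the 10 probe sequences, 9 were well above background on both arrays in at least 1 of the RNA groups.

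The tissue was the ureter of NMRI mouse embryos at stage E14.5, on 2 dye-swapped 2-colour arrays. The RNA labelled Gata2cKO came from embryos of genotype Tbx18(cre/+);Gata2(fl/fl), in which Cre recombinase is made from 1 Tbx18 allele. That locus is active in the mesenchyme around the ureter, and whether Cre acts in nerve cells here is not given in the labels. The control RNA came from embryos of genotype Tbx18(+/+);Gata2(fl/?), which lack Cre, carry a floxed Gata2 allele as well, and have another allele that the label does not specify. Array 1 holds replicate 1, where both RNAs are female and the Gata2cKO RNA carries Alexa Fluor 647. Array 2 holds replicate 2, where both RNAs are male and the Gata2cKO RNA carries Alexa Fluor 555. The effects of sex and of dye cannot be told apart. How many embryos gave each RNA is unknown from the labels. Whether the 2 arrays rest on separate litters is not stated either. The p-values therefore rest on the spread between these arrays, moderated by limma with that of all genes tested, and not on a known number of litters.

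Intermediate filaments, microtubules and their regulators give an axon its calibre and its tracks for transport. In neurons the intermediate filaments are built from the neurofilament light, medium and heavy chains (Nefl, Nefm, Nefh), from alpha-internexin (Ina) and, chiefly in peripheral neurons, from peripherin (Prph). Tubb3 encodes the beta-tubulin used as a marker of neurons, Stmn2 a stathmin that binds tubulin in growing neurites, and Gap43 a membrane protein of growth cones. The ureter is supplied by autonomic and sensory nerves. In bulk RNA, fewer cells of a type and less RNA per cell cannot be told apart.

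Gata2, the targeted gene, had no lower level in that RNA. Its log2 ratio, Gata2cKO over control, was 0.33 on array 1 and 0.54 on array 2, with a mean of 0.44 ± 0.153 (SD, n = 2) and an adjusted p of 0.409 by limma. Which part of the gene is deleted is not stated in the labels, so a probe outside it checks nothing, and every direction below is that of the RNA labelled Gata2cKO. The median scanner signal before background correction was 754 for the Gata2cKO RNA and 433 for the control RNA on array 1. On array 2 it was 428 for the Gata2cKO RNA and 754 for the control RNA, following the dye. Between 66.0% and 69.4% of spots were well above background in each RNA.

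Probe sequences are shown for the member that passed the test, Prph, and for the member whose ratios differed most between the arrays, Nefm. Both run 5′ to 3′ as the scanner files give them. In the Prph probe the capitals mark a stop codon, which closes the reading frame that begins at the probe's first base. No capitals are used in the Nefm probe, where that frame has no stop codon.
Prph: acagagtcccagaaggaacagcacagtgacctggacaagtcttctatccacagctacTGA
Nefm: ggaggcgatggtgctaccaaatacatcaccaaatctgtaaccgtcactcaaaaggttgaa
The Prph probe lies at chr15:98889042-98889101 on the plus strand and the Nefm probe at chr14:68738193-68738252 on the minus strand, in mm9 coordinates from the scanner files. Exon and intron positions were not assigned, as no gene models of that build were used. The other probes tested are at chr14:68705638-68705698 for Nefl, chr11:4838758-4838817 for Nefh, chr19:47098781-47098840 for Ina, chr8:125945850-125945909 for Tubb3, chr3:8561545-8561604 for Stmn2 and chr16:42248714-42248773 for Gap43. No member probe shares a stretch of 20 bases with a probe of another gene on the array.

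All 8 genes had a lower level in the RNA labelled Gata2cKO on both arrays, by 1.42-fold for Gap43 to 2.55-fold for Prph on average. Of all genes tested, 26.2% were below 0 on both arrays. Since the members were chosen with earlier results of these data known, this share and those below are a description and no test of the list. Prph was the 1 member of 8 that passed an adjusted p of 0.05 in limma as lower, which 0.0439% of all genes did (9 genes). At least 1.5-fold lower on both arrays were 5 of 8 members, Prph, Nefl, Ina, Tubb3 and Stmn2, against 0.439% of all genes. The median log2 ratio of the members was -0.93, with -1.03 on array 1 and -0.79 on array 2, against 0.00284 for all genes. The 1st percentile of all genes was -0.53 and the 5th percentile -0.25. At an unadjusted p of 0.05 all 8 members were lower, against 3.41% of all genes. With a trended and robust variance in limma, 7 of 8 passed the adjusted threshold as lower, all but Nefm, against 1.02% of all genes. Levels below are normalised intensities, per RNA after loess and scaling between arrays, and differences are log2 ratios. In all 8 members both Gata2cKO levels were under both control levels, against 18.9% of all genes. Nefh passed the filter on dim probes only through the control RNA, since it was well above background on 1 of 2 arrays in the Gata2cKO RNA. Without it the other 7 had a median of -1.09, all 7 were below 0 on both arrays and 5 were at least 1.5-fold lower on both.

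**Figure D1:**
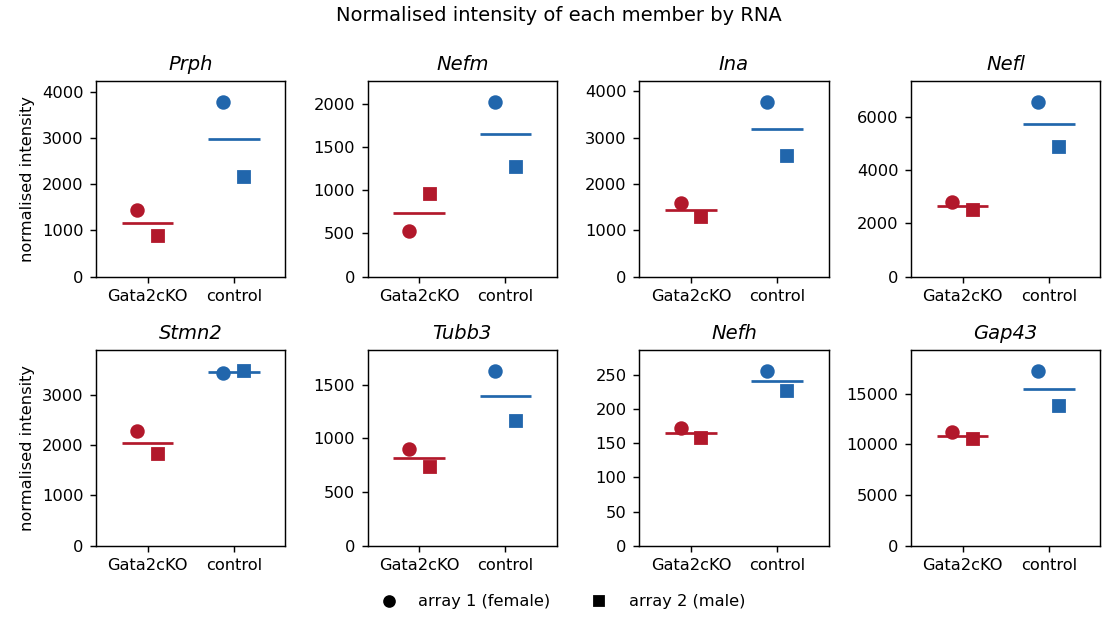
Normalised intensity (linear axis from 0, separate for each gene) of the 8 members in the RNA labelled Gata2cKO (red, left) and control (blue, right). Circles are array 1 (female), squares array 2 (male) and lines the mean of 2. In each panel both Gata2cKO points lie under both control points, with means of 1161 against 2978 for Prph.

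Peripherin fell. Prph had normalised intensities of 1452 and 871 in the RNA labelled Gata2cKO on arrays 1 and 2, against 3787 and 2169 in control RNA. The groups did not overlap, and both RNAs were brighter on array 1 than on array 2. The log2 ratios were -1.38 on array 1 and -1.32 on array 2, with a mean of -1.35 ± 0.0465 (SD, n = 2) and an SE of 0.106. That is 2.55-fold lower in the RNA labelled Gata2cKO (95% interval 2.13 to 3.06), with an adjusted p of 0.0380 in limma. The call was lost under median centring (-1.36, adjusted p 0.656) and in the authors' deposited table (-0.76, adjusted p 0.565). Prph was the 13th lowest of 20506 genes by mean ratio.

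The neurofilament chains were lower on both arrays without passing the adjusted threshold. Nefl, the light chain on which the heavier chains assemble, had intensities of 2808 and 2495 in the RNA labelled Gata2cKO, against 6546 and 4862 in control RNA. The groups were apart by more than the difference between arrays in either RNA. Its log2 ratios were -1.22 and -0.96, with a mean of -1.09 ± 0.183, 2.13-fold lower (95% interval 1.74 to 2.61), and an adjusted p of 0.0676 in limma. Nefm, the medium chain, had intensities of 525 and 952 in the RNA labelled Gata2cKO, against 2023 and 1274 in control RNA. Here the array with the higher Gata2cKO level had the lower control level, so the arrays were far apart. Its log2 ratio was -1.95 on array 1 and -0.42 on array 2, with a mean of -1.18 ± 1.08, 2.27-fold lower (95% interval 1.27 to 4.05), and an adjusted p of 0.455. Nefh, the heavy chain, had intensities of 172 and 157 in the RNA labelled Gata2cKO, against 256 and 227 in control RNA. Its groups did not overlap, and it was dim, at the 3.23 percentile of brightness among the genes tested. Its log2 ratios were -0.57 and -0.53, with a mean of -0.55 ± 0.0329, 1.47-fold lower (95% interval 1.22 to 1.76), and an adjusted p of 0.212. The Gata2cKO RNA was well above background on 1 of 2 arrays, and the size moved with the background correction. The log2 ratio was -0.67 with an offset of 16 and -1.08 with processed signals (adjusted p 0.0132). A further Nefh sequence at chr11:4839396-4839455 was not well above background in any group, so no fold is given for it.

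The Nefm ratio was steady within each array and differed between them. Its probe is spotted 10 times on each array, and 1 spot of array 1 was left out as an outlier. The 9 other spots of array 1 lay between -2.02 and -1.87 with an SD of 0.0560. The 10 spots of array 2 lay between -0.47 and -0.34 with an SD of 0.0381. The difference between arrays, after normalisation for dye, was therefore 1.53 on the log2 scale, many times the spread between spots. Among 303 detected probes spotted 10 times, the median difference between arrays was 0.157 and Nefm alone reached 1.53. Over all genes, 189 of 20506 differed more between arrays. Before background correction and loess, the mean signals of Nefm were 670 in the Gata2cKO RNA against 1511 in control RNA on array 1. On array 2 they were 712 against 1674. Spots of 1 probe share its dyes, so the SD between them does not cover a dye effect on that probe. Whether sex, dye or the embryos sampled go with the difference between arrays was not tested, since they change together.

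**Figure D2:**
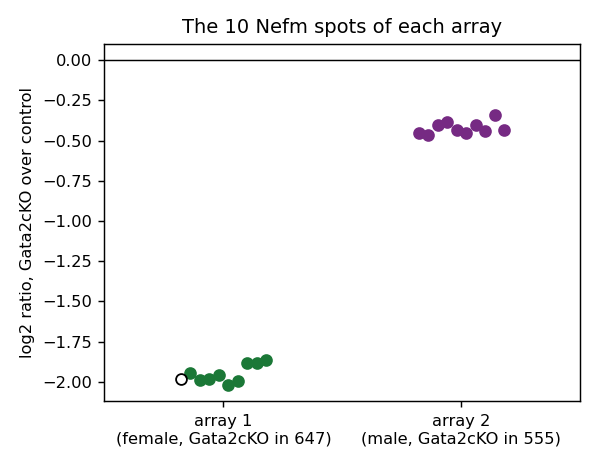
The log2 ratio (Gata2cKO over control, vertical axis) of each Nefm spot on array 1 and array 2. Filled points are spots used and the open circle is the outlier spot left out. The spots used lie from -2.02 to -1.87 on array 1 and from -0.47 to -0.34 on array 2.

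Ina, alpha-internexin, had intensities of 1584 and 1288 in the RNA labelled Gata2cKO, against 3766 and 2596 in control RNA. The groups did not overlap. Its log2 ratios were -1.25 and -1.01, with a mean of -1.13 ± 0.169, 2.19-fold lower (95% interval 1.79 to 2.67), and an adjusted p of 0.0532 in limma. A further Ina sequence at chr19:47099350-47099409, given an Ensembl transcript in the files, had intensities of 362 and 406 in the RNA labelled Gata2cKO, against 686 and 488 in control RNA. Its ratios were -0.92 and -0.27, so the 2 sequences had the same direction in the scanner ratios, with different sizes. In the authors' deposited table the further sequence had 0.36 on array 1 and -0.47 on array 2, so there its direction differed between arrays. With the mean of both in place of the brighter, Ina had a log2 ratio of -0.86 and an adjusted p of 0.143.

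The microtubule and growth cone members, Tubb3, Stmn2 and Gap43, were lower on both arrays without passing the adjusted threshold. Tubb3 had intensities of 904 and 737 in the RNA labelled Gata2cKO, against 1628 and 1165 in control RNA. The groups did not overlap, and both RNAs were brighter on array 1. Its log2 ratios were -0.85 and -0.66, with a mean of -0.75 ± 0.133, 1.69-fold lower (95% interval 1.39 to 2.04), and an adjusted p of 0.142 in limma. Stmn2 had intensities of 2280 and 1826 in the RNA labelled Gata2cKO, against 3429 and 3475 in control RNA. The control levels were nearly equal while the Gata2cKO levels were apart, and its array 2 ratio was the larger one, unlike the other 7 members. Its log2 ratios were -0.59 and -0.93, with a mean of -0.76 ± 0.240, 1.69-fold lower (95% interval 1.36 to 2.10), and an adjusted p of 0.186. Gap43, at the 73.1 percentile of brightness among the genes tested, had intensities of 11232 and 10511 in the RNA labelled Gata2cKO, against 17230 and 13791 in control RNA. Its groups did not overlap. Its log2 ratios were -0.62 and -0.39, with a mean of -0.50 ± 0.160, 1.42-fold lower (95% interval 1.16 to 1.73), and an adjusted p of 0.318.

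In order of mean ratio, lowest first, the members were Prph, Nefm, Ina, Nefl, Stmn2, Tubb3, Nefh and Gap43. The 95% intervals of neighbours in that order overlapped, and no difference between members was tested. The interval of Prph, -1.61 to -1.09 on the log2 scale, did not reach that of Stmn2, Tubb3, Nefh or Gap43. The order depended on the array for Nefm, which was lowest of the 8 on array 1 and 7th lowest on array 2.

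**Figure D3:**
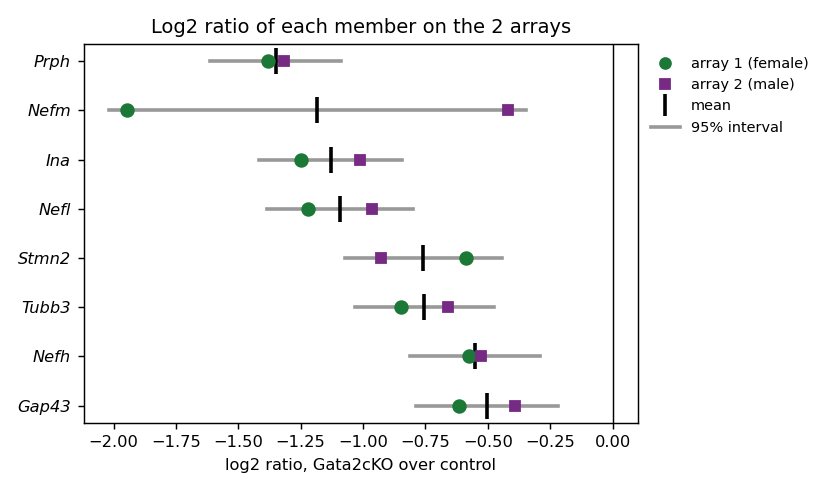
The log2 ratio of each member (Gata2cKO over control) on array 1 and array 2, with the mean and its 95% interval from limma. Every point is below 0, and the distance between arrays is widest for Nefm (-1.95 and -0.42).

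Over all genes the arrays did not run together at high brightness. Among the 5127 brightest genes, the brightest 25%, the ratios of the 2 arrays had a correlation of -0.57 across genes (Spearman -0.26), and 0 members were among them. Among the other 15379 genes it was 0.39 (Spearman 0.24), and all 8 members lay there. Gap43, at the 73.1 percentile of brightness, was just under the cut. Genes on 1 array share its dyes and normalisation and are not independent replicates, so these values are a description.

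**Figure D4:**
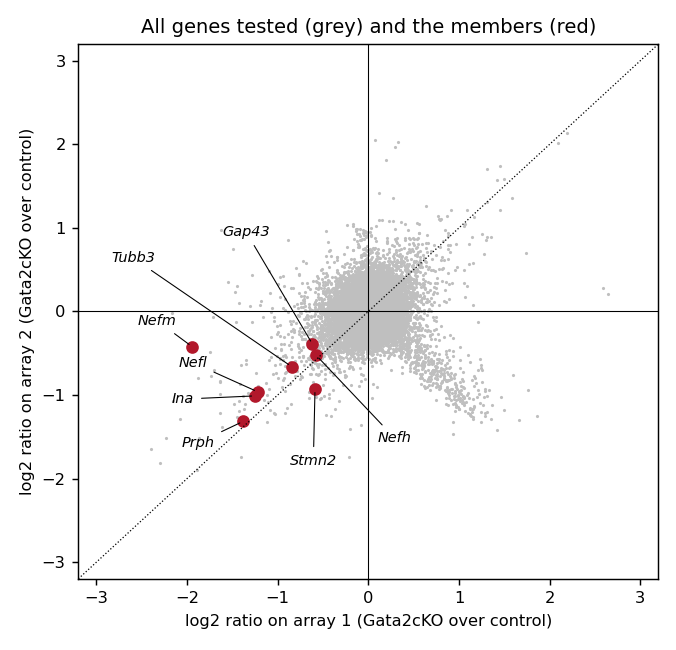
The log2 ratio (Gata2cKO over control) on array 1 (horizontal) against array 2 (vertical) for all 20506 genes tested (grey) and the 8 members (red), with a dotted line of equality. All 8 members lie at the lower left, and a tail of genes at the lower right has opposite signs on the arrays.

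In the authors' deposited table, whose making and centring are not given in the sources used here, the sequence tested for each of the 8 members was also below 0 on both arrays, on the log2 scale of the signed fold. The share of all genes below 0 on both arrays was not computed for that table, so this count is a description only. The direction of that table was taken from its correlation with the scanner ratios, 0.443 on array 1 and 0.376 on array 2. Prph had -0.72 and -0.80 there, Nefl -0.66 and -0.84, Ina -0.46 and -0.68, and Nefm -0.43 and -0.91. In that table array 2 was further from 0 for all 8 members, whereas in the scanner ratios it was so for Stmn2 alone. Stmn2 had -0.49 and -0.87, Tubb3 -0.28 and -0.68, Nefh -0.15 and -0.44, and Gap43 -0.10 and -0.48.

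Other genes of the cytoskeleton were taken in 5 companion lists, some of whose genes are neuronal. None of 88 companion genes passed the adjusted threshold in limma. At an unadjusted p under 0.05 there were 15 of 88, against 7.17% of all genes in either direction. Of 16 other intermediate filament genes tested, 4 were below 0 on both arrays and 6 above, with a median log2 ratio of 0.0197. Vim, the filament of mesenchyme, was at 0.07, Des of muscle at -0.22 and Nes of progenitor cells at -0.07, all 3 named after their values were seen, and the largest ratios of 1 sign on both arrays were Lmnb1 at 0.45 and Krt20 at 0.44. Of 17 other tubulins tested, 4 were below and 4 above 0 on both arrays, with 0.00403 as their median, and the named ones were Tubb4a at -0.13 and Tubd1 at -0.11. Beside Tubb3 at -0.75, the other beta-tubulins Tubb2a, Tubb2b, Tubb5 and Tubb6 were at -0.04, 0.10, 0.00403 and 0.02, a comparison chosen after their values were seen.

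Of 16 other stathmin, growth cone and collapsin response genes, 7 were below 0 on both arrays and 2 above, with a median of -0.0316. The neuronal stathmins Stmn3 and Stmn4 stood apart from that median. Stmn3 had log2 ratios of -1.09 and -1.18, with a mean of -1.13 ± 0.0627 and an adjusted p of 0.0503 in limma. Stmn4 had -1.22 and -0.89, with a mean of -1.06 and an adjusted p of 0.0756. Stmn1, the widely expressed stathmin, had 0.30 and -0.11, with a mean of 0.09. Dcx and Dpysl5, neuronal genes of that list, had means of -0.06 and 0.05, so not all its neuronal genes were lower. Stmn1, Dcx and Dpysl5 were named after their values were seen. Of 25 microtubule-associated proteins and axonal motors, 10 were below 0 on both arrays and 4 above, with a median of 0.00888. Kif5a, a neuronal heavy chain of conventional kinesin, had -0.94 and -0.58, with a mean of -0.76 and an adjusted p of 0.197 in limma. Map1b had a mean of -0.33. The relatives of Kif5a, Kif5b and the neuronal Kif5c, had means of 0.02 and -0.18. The neuronal genes Map2 and Kif1a of that list had means of 0.02 and 0.04. These comparisons were also chosen after their values were seen. Of 14 spectrin, ankyrin and axonal membrane genes, 1 was below 0 on both arrays and 8 above, with a median of 0.10. Cntn1, an axonal adhesion protein, had 1.28 and 0.69, with a mean of 0.98 and an adjusted p of 0.182, and Ncam1 had a mean of 0.32.

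**Figure D5:**
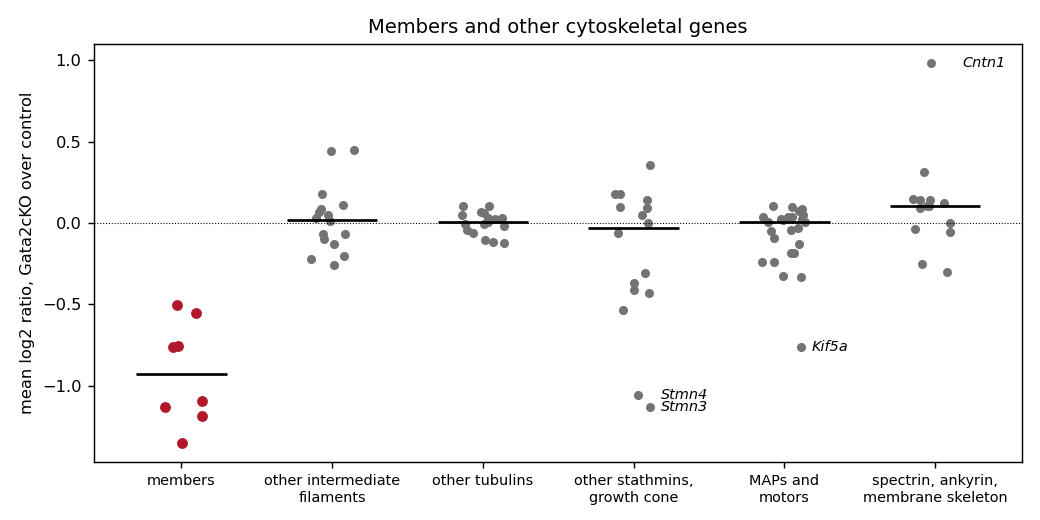
The mean log2 ratio (Gata2cKO over control) of each gene tested in the members and the companion lists, 1 point per gene, with the median of each list as a line. The members' median is -0.93, and the medians of the 5 companion lists lie between -0.0316 and 0.10.

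Markers of nerve cells and of other ureter cells are given beside the members, and their part in the members' ratios was not tested. Of 14 autonomic and chromaffin markers tested, 13 were below 0 on both arrays and 1 above, with a median log2 ratio of -1.33. Chgb, a granin of secretory granules, fell by 2.06 on the log2 scale (adjusted p 0.0380 in limma), and Slc18a2, the vesicular monoamine transporter, fell by 1.36 (adjusted p 0.0403). Chga, the granin chromogranin A, was at -1.87 with an adjusted p of 0.0505, and Chrna3 was not tested. The summed intensity of that list was 17670 and 18432 in the RNA labelled Gata2cKO, against 53084 and 37202 in control RNA. Of 13 markers of neurons in general, 9 were below 0 on both arrays and 2 above, with a median of -0.28, Elavl3 at -0.97 and Scg2 at -0.84. Their sums were 64643 and 66982 in the RNA labelled Gata2cKO, against 69385 and 70666 in control RNA, and the brightest probes weigh most in such sums.

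All 3 cholinergic markers tested were below 0 on both arrays, with a median of -0.23, Slc18a3 at -0.90 and Slc5a7 at -0.23. The remaining marker, Chat, named after its value was seen, was near 0 at -0.09, with an adjusted p of 0.949 in limma. The summed intensity of the 3 was 821 and 796 in the RNA labelled Gata2cKO, against 1339 and 1098 in control RNA. All 3 sensory markers tested of 8 listed were below 0 on both arrays, with Calca, the precursor of a sensory neuropeptide, at -1.03. Trpv1, Tac1, Scn10a, Pou4f1 and Avil, which define sensory neurons, were too dim to be tested. The sensory sums were 1655 and 1557 in the RNA labelled Gata2cKO, against 2423 and 2584 in control RNA. Of 6 Schwann cell and glial markers tested of 10, 4 were below 0 on both arrays, with a median of -0.36, Sox10 at -0.63 and S100b at -0.45. Cdh19, Gfap and Gjc3 were too dim to be tested, and the sums were 11864 and 12686 in the RNA labelled Gata2cKO, against 15390 and 14438 in control RNA.

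The non-neural lists differed from one another. All 7 smooth muscle markers had a ratio below 0 on each array. Their median was -0.85, and Myh11 and Actg2, a myosin and an actin of smooth muscle, were both at -1.13. Their sums were 33214 and 28709 in the RNA labelled Gata2cKO, against 48490 and 53420 in control RNA, without overlap. Of 10 urothelial markers, 8 were above 0 on both arrays and none below, with a median of 0.19, Cldn4 at 0.87 and Upk3a at 0.51. The urothelial sums were 228196 and 243891 in the RNA labelled Gata2cKO, against 190998 and 226354 in control RNA. Of 7 mesenchymal and adventitial markers, 2 were below 0 on both arrays and 1 above, and their median was 0.63 on array 1 but -0.20 on array 2, Tbx18 at 0.40 and Pdgfra at -0.17. Their sums were 1010063 and 599560 in the RNA labelled Gata2cKO, against 665621 and 1040511 in control RNA, so the direction was opposite on the arrays. Of 6 endothelial markers, 2 were below 0 on both arrays and 1 above, with a median of 0.000334, Plvap at -0.31 and Cldn5 at -0.19. Endothelial sums were 67695 and 71793 in the RNA labelled Gata2cKO, against 73831 and 68224 in control RNA. Apart from Chgb and Slc18a2, no gene of these 9 lists passed the adjusted threshold.

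The genes whose pair of array ratios lay nearest to the members' median pair of -1.03 and -0.79 were Slc18a3, Celsr3, Smpd3, Rtn1 and Vgf. The likeness is a Euclidean distance over 2 arrays, which was 0.0507 for Slc18a3, 0.0572 for Celsr3, 0.101 for Smpd3, 0.105 for Rtn1 and 0.113 for Vgf. Slc18a3 had ratios of -1.05 and -0.75, and Vgf had -1.13 and -0.86. None of the 5 passed the adjusted threshold, with adjusted p from 0.0766 to 0.106 in limma.

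Nefl and Nefm are neighbours in the genome, and their probes lie 32495 bases apart in mm9 on opposite strands. Within 500000 bases of them the array held 13 other probe sequences, of which 8 were detected. Those 8 had mean log2 ratios between -0.16 and 0.37, against -1.09 for Nefl and -1.18 for Nefm. None of those tested passed the adjusted threshold, the lowest adjusted p being 0.601 in limma.

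Promoter sequence was matched by symbol for 3 of the 8 members, Prph, Ina and Tubb3, from a RefSeq table of assembly GRCm38.p6. The last 100 bases before each gene's start are shown 5′ to 3′ on the gene's strand, with the letters TATAAA in capitals, for the members found in the table.
Prph: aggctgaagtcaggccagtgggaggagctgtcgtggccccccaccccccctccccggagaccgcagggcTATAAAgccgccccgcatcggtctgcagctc
Ina: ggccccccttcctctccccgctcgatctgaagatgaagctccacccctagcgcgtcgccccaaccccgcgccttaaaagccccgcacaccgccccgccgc
Tubb3: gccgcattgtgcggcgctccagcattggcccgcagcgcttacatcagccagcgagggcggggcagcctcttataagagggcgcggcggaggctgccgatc
These lie at chr15:99055074-99055173 for Prph, chr19:47014581-47014680 for Ina and chr8:123411453-123411552 for Tubb3, all on the plus strand of GRCm38.p6. Motifs were searched on both strands over 250 bases before the start. TATAAA was in the Prph window alone of the 3, and in 12.4% of 32851 promoters. CANNTG was in the Ina window alone, and in 66.2% of promoters. The GATA letters AGATAA and TGATAA were in none of the 3 windows, and in 9.99% and 7.94% of promoters. A match, or its absence in this window, is a description of letters only. The windows were 65.2% G and C in Prph, 70.8% in Ina and 68.0% in Tubb3, against a median of 52.4% over all promoters.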

How the data were processed

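Total RNA of ureters was amplified, coupled to Alexa Fluor 555 or 647 and hybridised to 2 arrays, per the labels' protocols. Per the file headers, the authors used array design 026655, with probes placed on mm9, and quantified it by GE2_107_Sep09, a protocol of Agilent Feature Extraction 10.7.3.1. The deposited scanner files give intensity on a linear scale, as mean signal, local background and processed signal, and, per the file headers, the log10 of red divided by green. The authors' deposited table is a score, read from its values as a signed fold, and how it was made is not stated there.

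From the mean and background signals, normexp (offset 50) and loess (span 0.3) gave log2 ratios, with outlier spots (255 on array 1, 178 on array 2) left out. Array 2 was turned so that ratios have Gata2cKO on top, and repeat spots were averaged. Probes well above background on both arrays in 1 RNA group were kept (25657 of 39429), and the brightest probe stood for a gene. Levels are loess and Aquantile intensities, offset included. limma 3.58.1 in R 4.3.3 (jsonlite 2.0.0, release 1.17.8 of data.table) tested ratios against 0 over 20506 genes with Benjamini-Hochberg adjustment at 0.05, two-sided, with 1 residual and 4.68 prior degrees of freedom. The number of arrays limits the precision. Functions were tested on simulated data. Python 3.11.15 drew the figures (pandas 2.3.3, matplotlib 3.10.9).

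The members and lists were chosen with earlier results of these data known. Named genes are the members, Gata2, from each list those past the threshold and otherwise the 2 largest ratios of 1 sign on both arrays, and the 5 genes nearest the members' median. The values of some list genes are not reported here. Alternatives were processed signals, another offset, median centring, no filter, probe means, outliers kept, a trended and robust variance, the deposited values, and each array alone.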

Additional observations from a re-analysis of the deposited data

How the results depend on the processing

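All 8 members were below 0 on both arrays with processed signals, an offset of 16 and median centring. So they were with probe means, with outlier spots kept and in the deposited table. The trended variance, the dropped filter and each array alone reuse the members' main ratios, so they could not turn a direction. The share of all genes below 0 on both arrays was not computed under the alternatives. In limma, 18 genes passed the adjusted threshold, of them 1 member and 0 of 88 companion genes. With processed signals these counts were 173, 5 and 3, and with an offset of 16 they were 41, 2 and 1. Without the filter on dim probes they were 54, 3 and 2, and with a trended and robust variance 376, 7 and 5. With outlier spots kept they were 28, 1 and 1, and with probe means 23, 1 and 1. Median centring gave 0, 0 and 0 (492 genes and 8 members at an unadjusted p under 0.05), as did the deposited table (972 genes and 5 members). The members' median log2 ratio of -0.93 was -1.10 with processed signals, -0.62 in the deposited table and between -1.03 and -0.79 on a single array. A single array has no test. Prph, with an adjusted p of 0.0380, had 0.656 under median centring and 0.565 in the deposited table, and between 2.06e-05 and 0.0374 under the others. Nefh had a log2 ratio of -1.08 and an adjusted p of 0.0132 with processed signals. The causes of these differences were not tested. Sequences lower on both arrays numbered 10 of 10, against 9 with median centring and 8 in the deposited table. They include the further Nefh sequence, which was not well above background in either RNA and was the 1 not lower with median centring. In the deposited table the further Nefh and Ina sequences were not lower on both arrays. The share of all sequences on the array was not computed. The test of ratios within arrays is itself paired by replicate, since each array sets 1 Gata2cKO RNA against 1 control RNA. 2 arrays limit the precision, and Nefh, near background, is limited by signal.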
